A study of Bos taurus with 40 samples.

Results

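A group of 7 aminoacyl-tRNA synthetases that are core enzymes of the cytosolic multisynthetase complex was followed in the cells of single bovine follicles. They were taken by symbol, as the rows EPRS, IARS, KARS, LARS, MARS, QARS and RARS. All 7 were found, of 59051 rows in each of the 4 RNA count tables. The study asked what distinguishes oocytes that reached the blastocyst stage from those that stopped at cleavage. Granulosa cells were taken from individual follicles, and the cumulus-oocyte complexes were then matured in vitro, where cumulus cells and a biopsy of the ooplasm (the oocyte's cytoplasm) were sampled. Granulosa cells, cumulus cells and these ooplasm biopsies, called fate biopsies here, each gave 4 libraries of the blastocyst group and 4 of the arrested group. A further set held 4 ooplasm biopsies and 4 whole oocytes with matching numbers and no fate label, called matched biopsies and whole oocytes. Every library is labelled Bos taurus and diploid.

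Aminoacyl-tRNA synthetases join each amino acid to its tRNA and so supply the ribosome. In animals, a set of them is held with 3 scaffold proteins in a single large cytosolic complex, while other cytosolic synthetases work outside it. EPRS is a fused enzyme that charges both glutamate and proline tRNAs. LARS, IARS, MARS, QARS, KARS and RARS charge the tRNAs for leucine, isoleucine, methionine, glutamine, lysine and arginine. A growing oocyte builds up maternal mRNA and protein that later serve the early embryo, and cumulus cells surround and feed it through gap junctions. No rows carried the symbols of the 3 scaffold genes.

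Values are CPM (a gene's counts divided by the library's scaled total and multiplied by 1e+06), scaled by TMM over all 32 libraries, with SD over libraries. Library totals ran from 7964591 counts in a cumulus library to 23790073 in a whole oocyte. Depth therefore set little limit for 6 of the 7 genes, but QARS was near the detection limit in the ooplasm. The labelled tissues were checked against the one oocyte marker with a row under its symbol, the linker histone H1FOO. It stood at 662 to 1905 CPM in biopsies and oocytes and at 0.10 or less in cumulus cells. In granulosa libraries it was 3.91 to 15.5 CPM in the blastocyst group and 0.23 to 4.59 in the arrested group. No listed follicle-cell marker had a row under its symbol, so the granulosa and cumulus labels were not checked. Genes were looked up by symbol alone, which 2474 of the 59051 rows had. Most other rows carry Ensembl (27607) or NONCODE (22227) identifiers, so a gene without a match may still have been counted under one. Granulosa libraries of the blastocyst group detected 27546 ± 1170 rows at 5 counts or more, against 19465 ± 1762 in the arrested group (SD, n = 4 each). Within the blastocyst group, granulosa libraries B20 and D27 stood apart, with the highest H1FOO, 15.5 and 9.97 CPM, and the lowest sums over the 7 synthetases, 171 and 340 CPM. Tests and correlations that rest on granulosa cells were also run without them, while shares and levels include them. Both were known to stand apart from earlier results of these data, and since their sums are the lowest, leaving them out raises the blastocyst granulosa levels by the way they were chosen. These are bulk samples, so fewer cells of a type and less RNA per cell cannot be told apart. Each cell type came in its own count table, so cell type and table cannot be told apart either.

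The makeup of the 7-synthetase set differed between ooplasm and follicle cells mainly through 3 genes. The share of a gene in the summed CPM of the 7 does not depend on how libraries are scaled. RARS made up 34.6% ± 6.99 of that sum in the 8 fate biopsies, 16.1% ± 3.04 in the 8 granulosa libraries and 7.25% ± 0.53 in the 8 cumulus libraries. Its lowest share in a fate biopsy, 27.6%, lay above its highest in a granulosa library, 20.99%. KARS ran the other way, at 9.13% ± 2.73 in fate biopsies against 26.0% ± 2.04 in cumulus cells and 22.7% ± 6.68 in granulosa cells. Its lowest granulosa share, 9.04% in library B20, lay within the fate biopsy range of 6.13% to 13.0%. QARS made up 14.4% ± 1.21 in cumulus cells, 8.78% ± 3.11 in granulosa cells and 0.245% ± 0.357 in fate biopsies. The remaining genes kept closer shares, as EPRS did with 24.1% ± 5.59 in fate biopsies, 22.1% ± 1.35 in cumulus cells and 19.0% ± 2.67 in granulosa cells. The rows were not scaled by transcript length, so no order of level between the 7 genes was drawn.

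**Figure D1:**
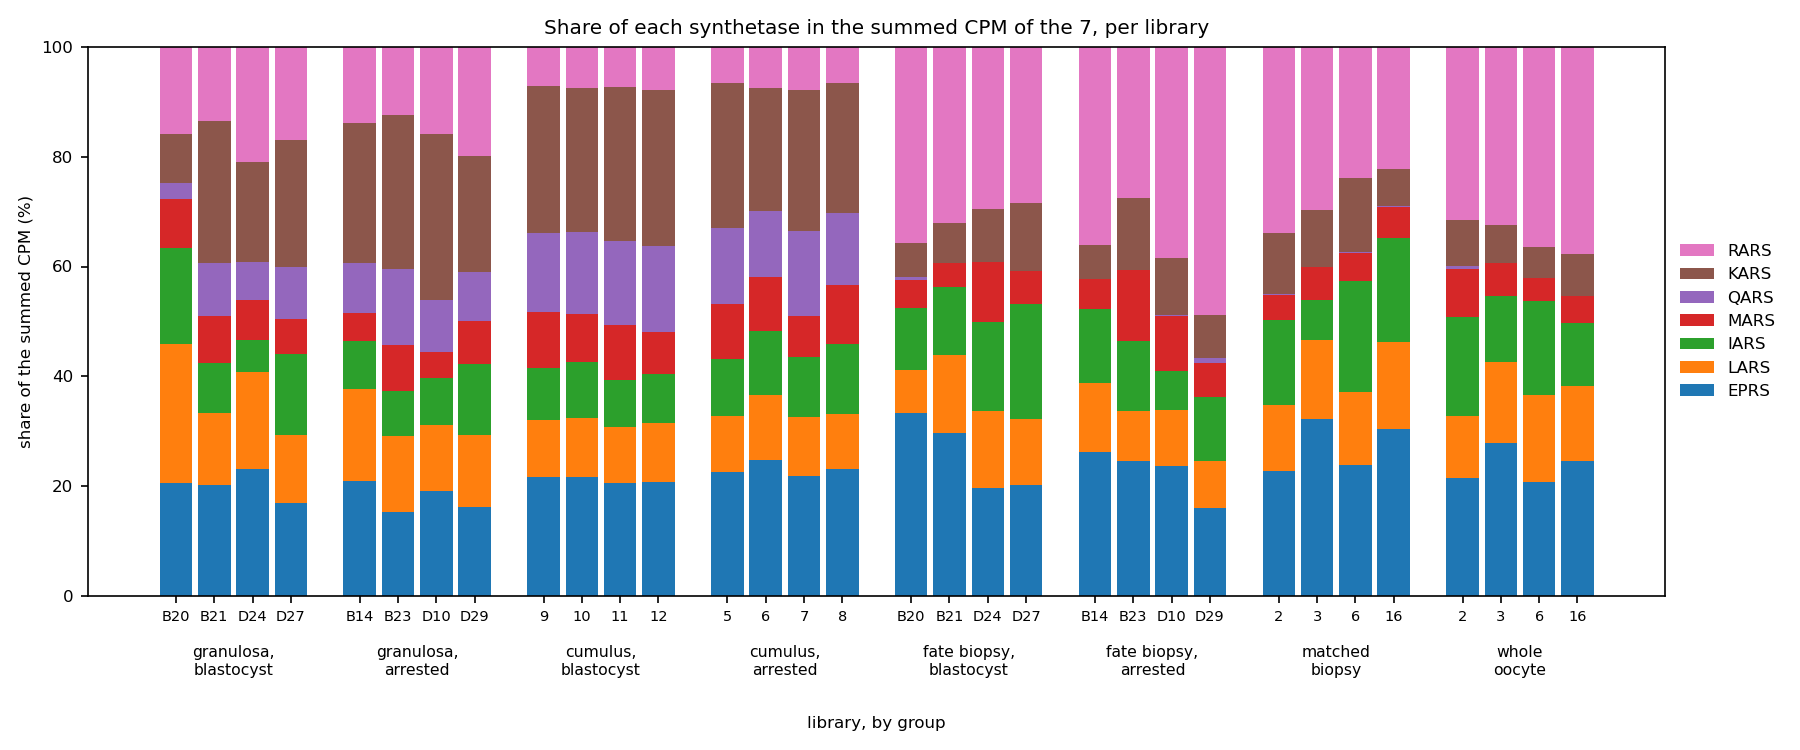
Stacked bars give each gene's percent of the summed CPM of the 7 synthetases in each of 32 libraries (x axis, named by oocyte label, column number or pair number). RARS takes 27.6% to 48.8% in fate biopsies and 6.49% to 7.87% in cumulus cells, and QARS is almost absent from the 16 biopsy and oocyte bars.

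QARS, the glutaminyl-tRNA synthetase, was the most uneven of the 7 across cell types. In cumulus cells it was 139, 140, 151 and 146 CPM in the blastocyst libraries (columns 9 to 12) and 137, 121, 149 and 141 in the arrested libraries (columns 5 to 8). Granulosa libraries B20, B21, D24 and D27 of the blastocyst group held 4.91, 45.1, 44.6 and 31.97 CPM. In the arrested group, granulosa libraries B14, B23, D10 and D29 held 71.4, 95.4, 100.1 and 69.3 CPM. Cumulus cells were thus the high and even group, and granulosa library B20 was the lone low one outside the ooplasm.

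In the ooplasm QARS rested on few counts. The blastocyst fate biopsies B20, B21, D24 and D27 had 52, 3, 10 and 3 counts, or 2.86, 0.17, 0.59 and 0.16 CPM. The arrested fate biopsies B14, B23, D10 and D29 had 10, 9, 11 and 138 counts, or 0.49, 0.46, 0.68 and 7.87 CPM. Biopsy D29 was the highest, and its exact 95% counting interval, 6.07 to 8.54 CPM by library total, did not reach the interval of biopsy B20, 2.08 to 3.65. Matched biopsies 2, 3, 6 and 16 had 10, 10, 8 and 3 counts, and the oocytes of the same numbers had 48, 2, 0 and 2. The 0 in oocyte 6 allows up to 3 counts, or 0.156 CPM by library total. These intervals and limits cover counting error only. Without scaling by TMM, the lowest granulosa value, 10.8 CPM in B20, was above the highest in the ooplasm, 7.23 CPM in biopsy D29; with TMM these libraries overlapped.

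QARS was 93.3-fold higher in cumulus cells than in fate biopsies (log2 difference 6.54, SE 0.73, edgeR adjusted p = 1.87e-09), with no overlap between the 16 libraries. It was 34.3-fold lower in fate biopsies than in granulosa cells (log2 difference -5.10, SE 0.69, edgeR adjusted p = 1.07e-07). Both calls held in every alternative run for them, 23 and 25 settings, with log2 differences from 5.85 to 7.61 and from -6.25 to -4.92. To set these low counts beside other follicle-cell RNA, 54 rows were taken that were at 50 CPM or more in every cumulus library and in the granulosa median, with a median of 0.5 or less in the matched set. That list was made from these values after those of QARS were seen. Its level in the matched set is fixed by the choice. A low sum in fate biopsies, the same kind of material, largely follows from it too. Their sum in fate biopsies was 0.260% to 0.473% of the cumulus mean. Biopsy D29 stood at 0.312% by that sum and at 5.60% by QARS. Biopsy B20 stood at 0.396% and 2.04%. Whole oocyte 2 had the highest sum of the matched set, 0.586%, and QARS at 2.47%. The part of follicle-cell RNA in these QARS counts was not tested.

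KARS, the lysyl-tRNA synthetase, was the other member called lower in fate biopsies than in both follicle cell types. Its level was 35.1, 49.0, 59.6 and 60.1 CPM in blastocyst fate biopsies B20, B21, D24 and D27, and 51.2, 53.7, 79.3 and 58.6 in arrested biopsies B14, B23, D10 and D29. Cumulus libraries ranged from 223 to 277 CPM, with no overlap. Granulosa libraries ran from 15.5 CPM in B20 to 322 in D10, with a median of 143, so library B20 lay below every biopsy and D27, at 78.8 CPM, just below the highest one, while the other 6 lay above them all. KARS was 4.57-fold higher in cumulus cells than in fate biopsies (log2 difference 2.19, SE 0.26, edgeR adjusted p = 6.60e-09). It was 2.43-fold lower in fate biopsies than in granulosa cells (log2 difference -1.28, SE 0.25, edgeR adjusted p = 5.23e-05). Within the blastocyst group that second difference was -0.72 and missed the threshold (edgeR adjusted p = 0.0855), and within the arrested group it was -1.85 (edgeR adjusted p = 7.51e-05). Whole oocytes, at 58.6 ± 10.2 CPM, and matched biopsies, at 59.2 ± 15.9 (SD, n = 4 each), lay within the range of the fate biopsies by their means.

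RARS, the arginyl-tRNA synthetase, was higher in the ooplasm than in either follicle cell type. The blastocyst fate biopsies held 203, 217, 182 and 136 CPM (B20, B21, D24, D27), and the arrested ones 302, 114, 288 and 369 (B14, B23, D10, D29). Cumulus cells lay between 63.6 and 75.3 CPM in all 8 libraries, below every biopsy. Granulosa cells ran from 27.1 to 168 CPM and overlapped the 2 lowest biopsies. The fitted level in fate biopsies was 2.33-fold that of granulosa cells (log2 difference 1.22, SE 0.25, edgeR adjusted p = 6.58e-05). In cumulus cells it was 3.13-fold lower than in fate biopsies (log2 difference -1.65, SE 0.25, edgeR adjusted p = 5.85e-07). These calls held in all 25 and 23 alternatives, although library totals alone cut the first to 0.69. The RefSeq annotation (ARS-UCD2.0) places RARS1 across WWC1 and an uncharacterised locus, and the counting of strands is not stated, so reads of overlapping exons cannot be told apart. The same holds for MARS1, which overlaps DDIT3, a stress-response transcription factor, and for IARS1, which overlaps an uncharacterised locus.

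**Figure D2:**
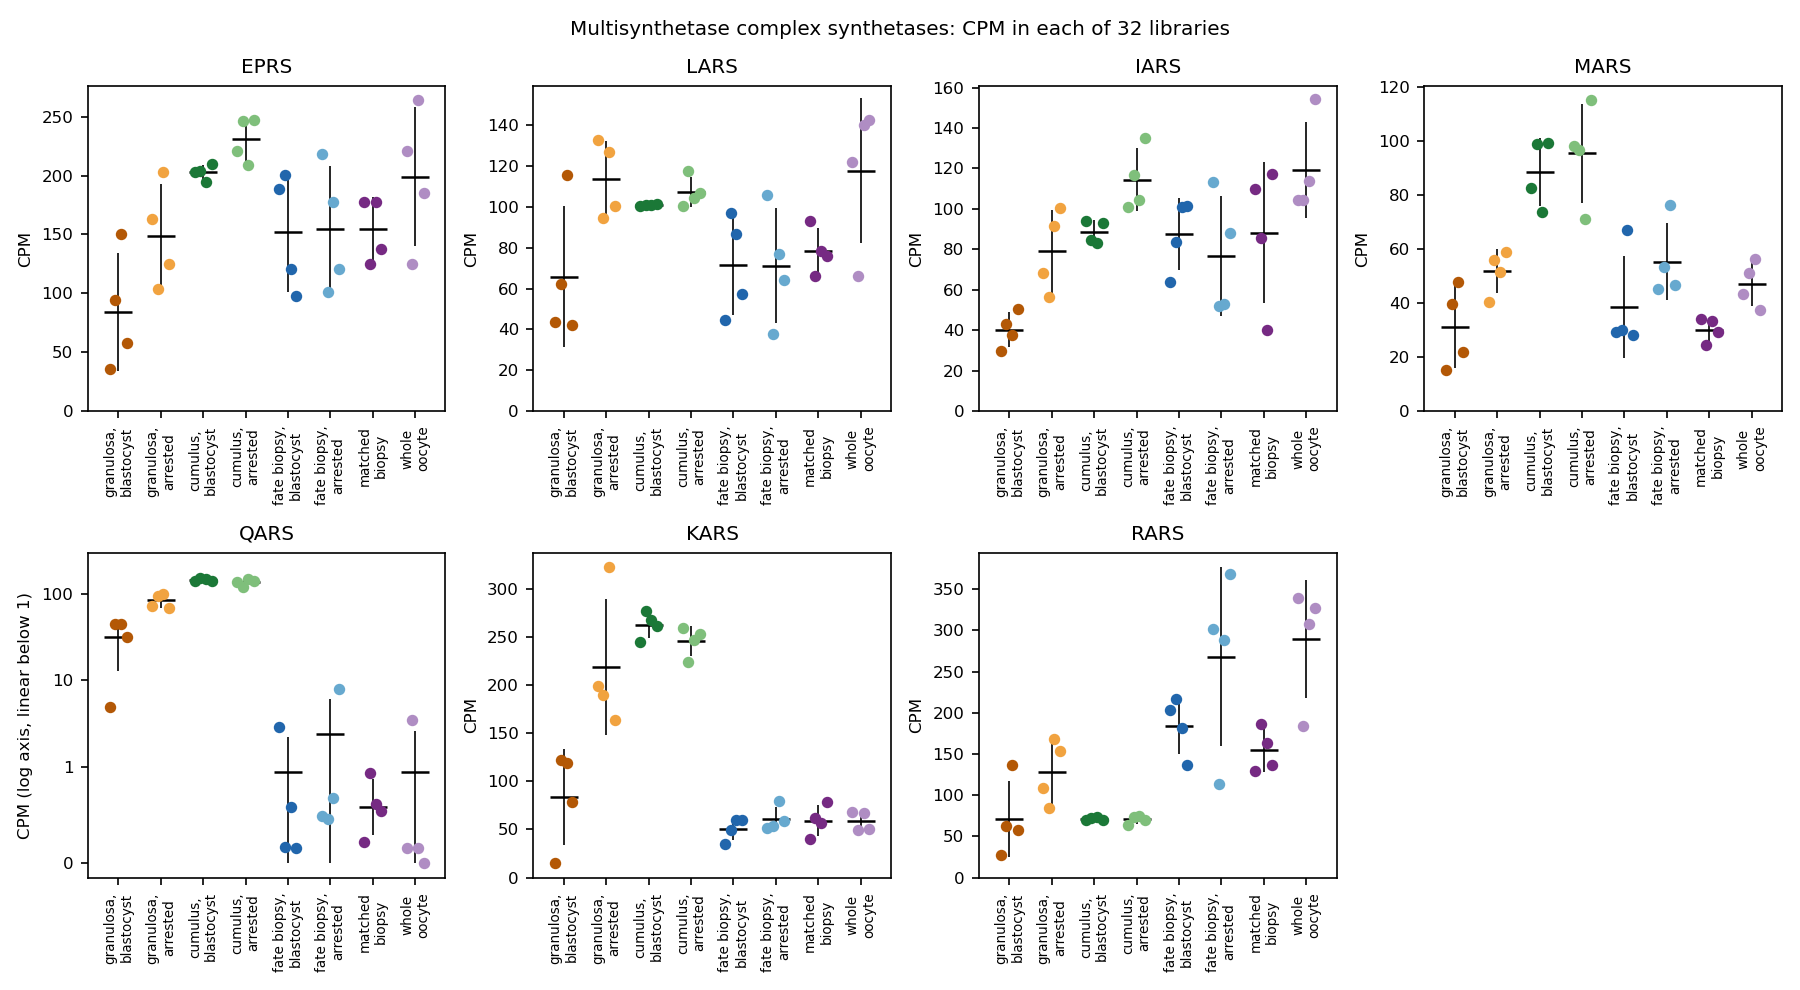
Each panel gives 1 gene, with CPM on the y axis (log axis, linear below 1, for QARS alone) and 8 groups of 4 libraries on the x axis. Points are libraries, horizontal lines means and vertical lines SD; RARS is highest in biopsies and oocytes, KARS and QARS in cumulus and granulosa cells.

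Over the 7 genes, 4 differed between fate biopsies and granulosa cells. RARS and IARS were higher in the biopsies, and QARS and KARS lower. Over all 29999 rows tested, 62.2% were called in this comparison, 33.6% higher and 28.7% lower, so 4 of 7 is not above the background. No member's groups were free of overlap, where 23.6% of all rows were. The median log2 difference of the 7 was 0.20, beside 0.06 over all rows. Over the 6180 rows with a mean of 30 to 300 CPM, a range nearer the members' levels, the median was higher, 0.68, and 81.6% were called. IARS, which charges isoleucine tRNAs, was 82.1 ± 23.4 CPM in biopsies and 59.6 ± 25.3 in granulosa cells (SD, n = 8 each; log2 difference 0.54, SE 0.21, edgeR adjusted p = 0.0253). Its call was lost in 7 settings, among them those without granulosa library B23 (0.32) or biopsy B14 (0.42) and those without B20 and D27 (0.42), and its sign turned in a further 2, at -0.020 with library totals and -0.045 among arrested libraries. EPRS (0.45), MARS (0.20) and LARS (-0.28) did not pass (edgeR adjusted p from 0.0962 to 0.452). DESeq2 called LARS lower (-0.57, adjusted p = 0.00907), and EPRS was called higher without granulosa library D24 (0.67, edgeR adjusted p = 0.0101) and among blastocyst libraries (0.85, edgeR adjusted p = 0.0319). Library totals moved the median of all rows from 0.06 to -0.49 and with it EPRS to -0.066 and MARS to -0.31. Without granulosa libraries B20 and D27, QARS was -5.46, KARS -1.66 and RARS 0.85, all called, and LARS was called at -0.62. With library totals the calls were 1 higher (RARS) and 3 lower (QARS, KARS and LARS).

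Cumulus cells and fate biopsies differed in 5 of the 7. Here 77.4% of all rows were called, 28.6% higher and 48.8% lower. QARS, KARS, MARS and LARS were higher in cumulus cells and RARS was lower. MARS, which charges both initiator and elongator methionine tRNAs, was 91.9 ± 14.9 CPM in cumulus cells and 46.9 ± 17.9 in fate biopsies (SD, n = 8 each; log2 difference 0.99, SE 0.23, edgeR adjusted p = 0.000242). LARS was 104 ± 5.97 against 71.3 ± 24.5 CPM (log2 difference 0.54, SE 0.22, edgeR adjusted p = 0.0277), and lost its call in 7 of 23 alternatives, within each fate group and without biopsy B20, D27 or B23 (0.44 to 0.50) among them. EPRS, at 217 ± 19.8 against 153 ± 48.1 CPM, just missed the threshold (edgeR adjusted p = 0.0532) and DESeq2 called it (adjusted p = 0.0132). IARS, at 102 ± 17.4 against 82.1 ± 23.4 CPM, did not pass, but did with library totals (0.50, edgeR adjusted p = 0.0263). The groups did not overlap for QARS, KARS and RARS, 3 of 7, and 49% of all rows did not overlap. The median of the 7 was 0.54, that of all rows -1.34 and that of rows of 30 to 300 CPM -0.55, of which 85.4% were called.

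The 2 follicle cell types also differed from each other. Between cumulus and granulosa cells 5 of 7 were called, all higher in cumulus cells, where edgeR called 51.7% of all rows and 18.8% higher. They were MARS (log2 difference 1.19, edgeR adjusted p = 5.65e-05), EPRS (0.95, edgeR adjusted p = 0.00120), KARS (0.91, edgeR adjusted p = 0.00312), IARS (0.84, edgeR adjusted p = 0.00126) and QARS (1.45, edgeR adjusted p = 0.0366). LARS (0.27) and RARS (-0.43) did not pass. RARS was called lower in cumulus cells in 8 of 24 alternatives, among them DESeq2 (-0.64, adjusted p = 0.00686), library totals (-0.74), no filter on low counts (-0.57) and leaving out granulosa library B20 (-0.57) or B23 (-0.71). For MARS and QARS every cumulus library lay above every granulosa library, 2 of 7, as 14.8% of all rows did in this direction. By library totals they did not overlap either. With TMM run inside each count table both did, but factors are then centred within each table. That setting gives the 2 cell types no common scale and cannot decide whether they overlap. The median of the 7 was 0.91, beside -0.20 over all rows and 0.10 over rows of 30 to 300 CPM, of which 62.0% were called in either direction. Only MARS was called when the arrested libraries alone were compared, at 0.88 (edgeR adjusted p = 0.0421). KARS was then 0.17, EPRS 0.63, IARS 0.53 and QARS 0.71. Among blastocyst libraries alone the same 5 genes were called, from 1.14 for IARS to 2.19 for QARS. QARS lost its call in 13 of 24 alternatives, among them 7 that left out 1 library (granulosa B20, D27, B14, B23 or D29, or cumulus column 11 or 7; 1.27 to 1.45). Without granulosa libraries B20 and D27 together it was 1.05 (edgeR adjusted p = 0.205), while RARS was then at -0.82 (edgeR adjusted p = 0.00232). In that setting MARS was 0.81, IARS 0.69, EPRS 0.54 and KARS 0.50, all still called but smaller.

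**Figure D3:**
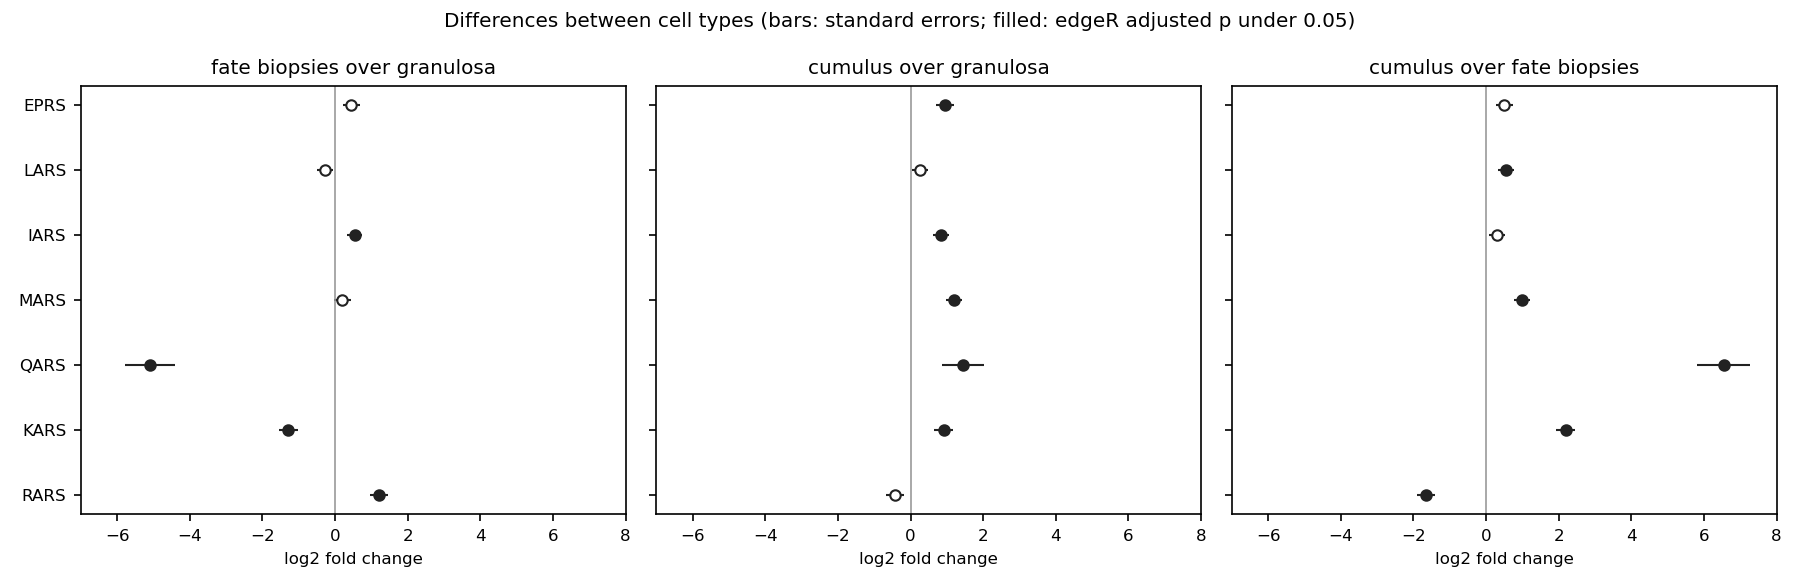
Log2 fold changes (x axis) of the 7 genes (y axis) between cell types, with standard errors as bars and filled points for edgeR adjusted p under 0.05. QARS spans -5.10 to 6.54, and RARS and KARS take opposite sides in both panels with fate biopsies.

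Other cytosolic synthetases, listed apart from the core enzymes of the complex, were the pathway's other genes with rows under their symbols, 11 of 13 listed. Between cumulus and granulosa cells all 11 were called higher in cumulus cells, as were 18.8% of all rows. Between cumulus cells and fate biopsies 9 of 11 were called, all higher in cumulus cells, where 28.6% of all rows were called higher. The median over the 11 was 2.94, beside -1.34 over all rows and -0.55 over rows of 30 to 300 CPM. The largest were YARS for tyrosine (5.68), HARS for histidine (3.96) and TARSL2, a threonyl-tRNA synthetase paralog (3.93). Against granulosa cells, fate biopsies were called lower for 6 of 11, among them AARS (-2.06) and SARS (-1.34), and higher for TARS, WARS (0.99) and GARS (0.82), beside 28.7% of all rows lower and 33.6% higher. Of these genes and the 7 of the complex, RARS was the one called lower in cumulus cells than in fate biopsies.

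No member was called between the fate groups in granulosa cells, although all 7 were lower in the blastocyst group. The call rule took 21.6% of all rows, 21.3% higher in the blastocyst group and 0.349% lower. The median of the 7 was -0.69. Over all rows the median was 0.10, but over the 5908 rows with a mean of 30 to 300 CPM it was -0.70, and 6.97% of these were called. KARS was 15.5, 122, 119 and 78.8 CPM in blastocyst libraries B20, B21, D24 and D27, and 199, 190, 322 and 163 in arrested libraries B14, B23, D10 and D29. IARS was 29.8, 42.9, 37.6 and 50.3 CPM against 68.1, 56.2, 91.4 and 100.3 in the same order. For KARS, IARS and QARS every blastocyst library lay below every arrested one, as was so for 14.9% of all rows. By library totals QARS alone stayed apart. KARS then overlapped, at 187 CPM in blastocyst library B21 against 182 in arrested library D29, and IARS too, at 96.5 in D27 against 62.5 in B23. Their log2 differences were -1.23 (SE 0.61), -0.82 (SE 0.35) and -1.27 (SE 0.59), with edgeR adjusted p of 0.163, 0.120 and 0.145. IARS was the one member with an unadjusted edgeR p under 0.05, where 36.8% of all rows were, and DESeq2 called none.

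The size of these differences moved with scaling and with a pair of libraries. The summed CPM of the 7 was 408 ± 203 in the blastocyst group and 825 ± 166 in the arrested group (SD, n = 4 each). By library totals alone the sums were 680 ± 243 and 881 ± 128. The 54 follicle-cell rows above, whose choice used the granulosa median, summed to 6.46% to 44.7% of the cumulus mean in the blastocyst libraries and to 57.0% to 80.6% in the arrested ones. Library B20 had the lowest sum of the 7, 171 CPM, and the highest H1FOO, 15.5 CPM, of the granulosa libraries. The median of all rows was 0.10 with TMM and 0.70 with library totals. All 7 differences stayed below 0 under each scaling, but library totals brought them to between -0.79 (QARS) and -0.10 (MARS). Without B20 and D27, which hold the lowest sums, they lay between -0.75 (IARS) and -0.02 (MARS). The part of oocyte RNA, of depth or of these 2 libraries in the differences was not tested beyond these values.

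Cumulus cells gave small differences with tight errors. By edgeR 0 of the 7 and 0% of all rows were called. IARS was 93.3, 94.1, 84.7 and 83.2 CPM in blastocyst columns 9 to 12, and 101, 117, 104 and 135 in arrested columns 5 to 8. The arrested libraries were all higher, as was so for 4.82% of all rows. The log2 difference was -0.37 (SE 0.09), with an edgeR adjusted p of 0.153. DESeq2 called IARS (adjusted p = 0.0422), as did edgeR without a filter on low counts (adjusted p = 0.0159). EPRS was 203 ± 6.28 against 231 ± 18.8 CPM (log2 difference -0.19, SE 0.07, edgeR adjusted p = 0.270) and the groups overlapped at 1 library. These 2 had an unadjusted p under 0.05, and so had 14.6% of all rows. The remaining 5 lay between -0.11 (MARS) and 0.10 (KARS), and the median of the 7 was -0.09.

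Fate biopsies gave no call either. By edgeR 0 of the 7 and 0% of all rows were called, DESeq2 called no member, and no member had an unadjusted p under 0.05, as 4.8% of all rows did. RARS was 185 ± 35.1 CPM in the blastocyst group and 268 ± 109 in the arrested group (log2 difference -0.56, SE 0.31, edgeR adjusted p = 0.9999), and the groups overlapped through arrested biopsy B23, at 114 CPM. MARS was 38.5 ± 19.0 against 55.3 ± 14.3 CPM (-0.56, SE 0.36), with blastocyst biopsy D24, at 66.96 CPM, among the arrested values. The QARS difference, -1.29 (SE 1.33), turned to 0.77 without arrested biopsy D29. EPRS, IARS, KARS and LARS lay between -0.29 and 0.15. The standard errors of these log2 differences ran from 0.29 (KARS) to 1.33 (QARS).

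The fate difference in granulosa cells was also set against that in biopsies, in a joint fit of the 16 libraries. By edgeR none of the 7 was called, and DESeq2 called none, where edgeR called 6.9% of all rows. All 7 terms were below 0 with a median of -0.79, beside 0.15 over all rows and -0.71 over rows of 30 to 300 CPM. IARS had the largest, -1.17 (SE 0.49, edgeR adjusted p = 0.139), and the one unadjusted p under 0.05, as 26.1% of all rows had. The terms for MARS, QARS and RARS turned above 0 without granulosa libraries B20 and D27, at 0.45, 0.55 and 0.34.

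**Figure D4:**
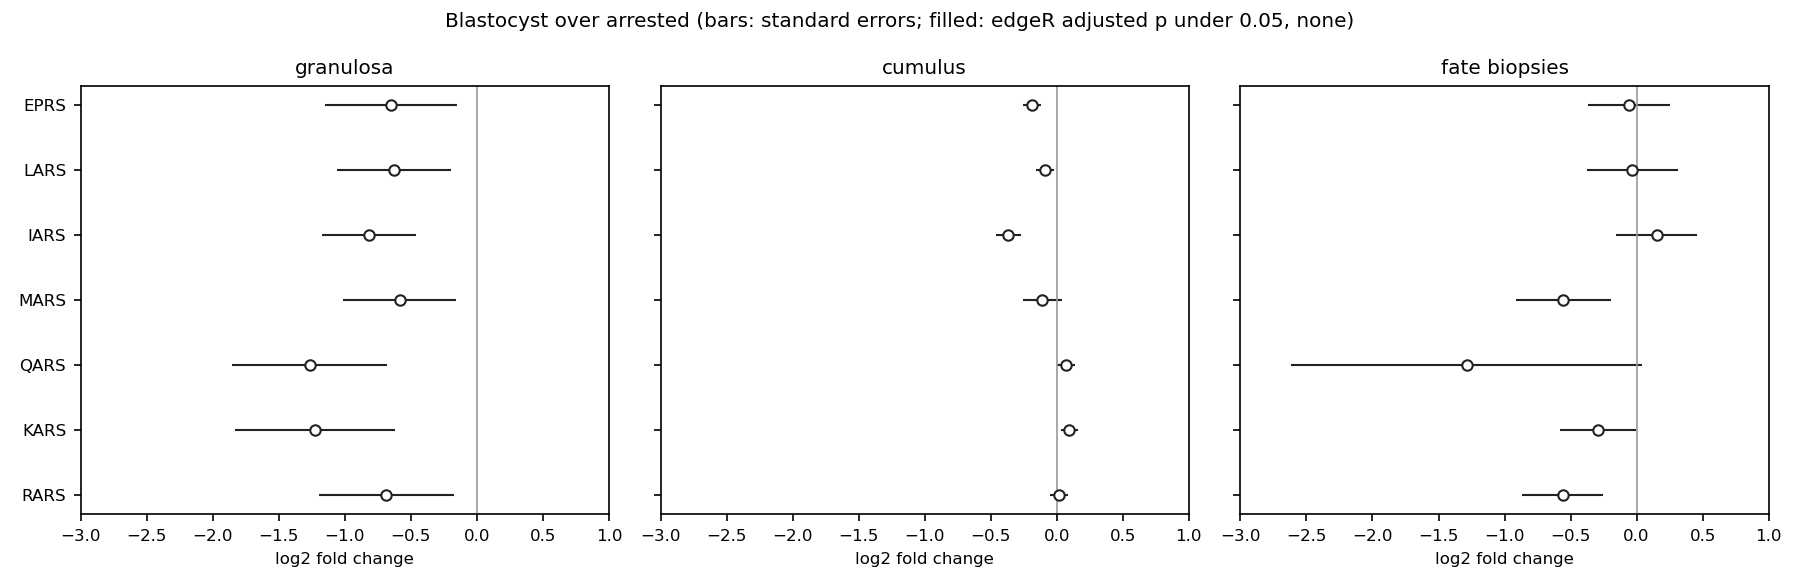
Log2 fold changes of blastocyst over arrested groups (x axis) for the 7 genes (y axis) in granulosa cells, cumulus cells and fate biopsies, with standard errors as bars. All granulosa points lie below 0, from -1.27 to -0.59, and no point is filled, since none passed an edgeR adjusted p of 0.05.

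No member was called between matched biopsies and whole oocytes. By edgeR 0 of the 6 members tested and 0% of all rows were called, DESeq2 called none, and QARS fell under the count filter. RARS was 186, 164, 137 and 130 CPM in biopsies 2, 3, 6 and 16, and 184, 307, 327 and 339 in the oocytes of the same numbers. Oocyte 2 was level with its biopsy, and the other 3 oocytes were higher. The RARS difference was -0.78 (SE 0.27), with an edgeR adjusted p of 0.704, and it was the one member with an unadjusted p under 0.05, as 5.54% of all rows had. MARS was 24.3, 33.2, 29.2 and 33.9 CPM in the biopsies and 51.0, 56.4, 37.4 and 43.4 in the oocytes. Each biopsy was lower than its own oocyte and the groups did not overlap, as in 3.2% of rows for this direction (log2 difference -0.51, SE 0.30, edgeR adjusted p = 0.920). This pattern depended on scaling. By library totals pair 6 turned, at 23.7 CPM in the biopsy and 22.4 in the oocyte, and the groups overlapped. With TMM run on the matched table alone each biopsy stayed lower than its oocyte, but biopsy 16 (25.4 CPM) lay above oocyte 6 (25.3 CPM). LARS was 66.0, 78.5, 76.0 and 93.3 CPM in the biopsies and 66.1, 140, 142 and 122 in the oocytes (log2 difference -0.46, SE 0.29). With the pair as a block RARS was -0.76 (edgeR adjusted p = 0.677), and no member was called.

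**Figure D5:**
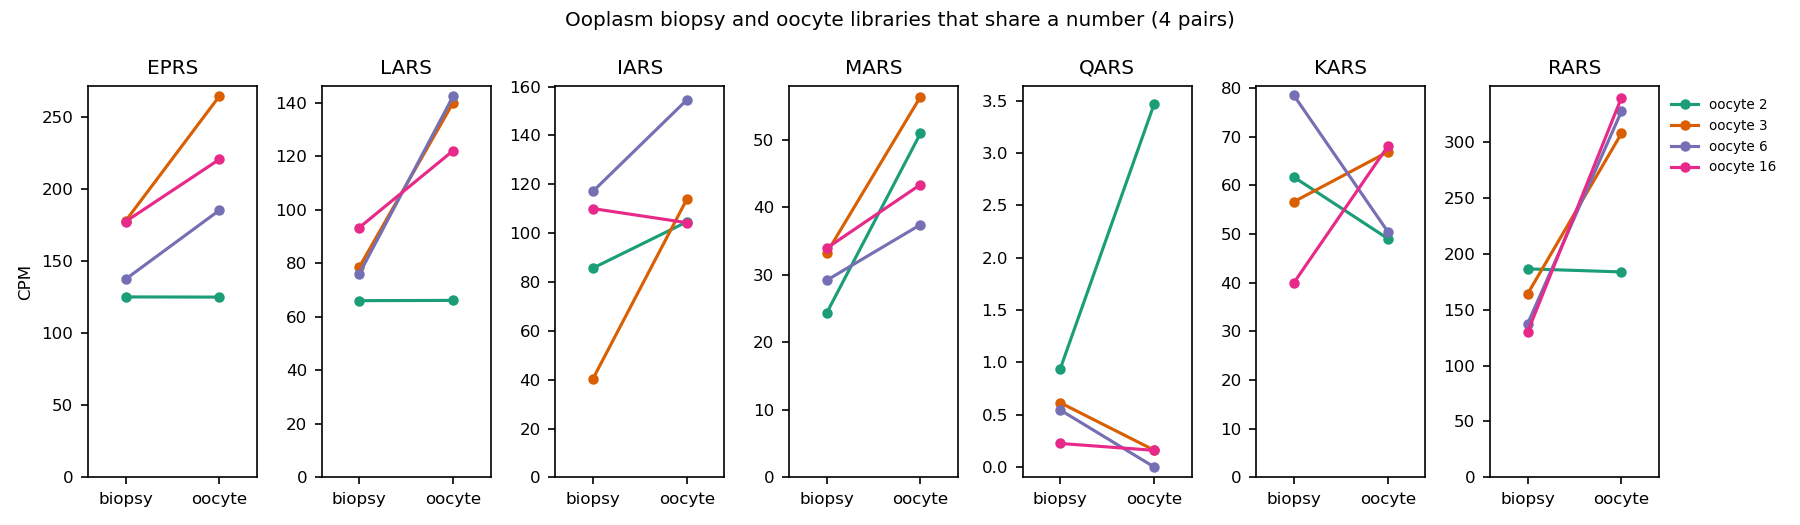
Lines join the CPM (y axis) of the ooplasm biopsy and the whole oocyte that share a number, for each of the 7 genes and 4 pairs. With TMM over all 32 libraries MARS rises from biopsy to oocyte in 4 of 4 pairs (not in pair 6 by library totals). LARS also rises in 4 of 4, though pair 2 is nearly level (66.0 and 66.1 CPM), RARS in 3 of 4, and KARS in 2 of 4.

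Biopsies of the matched set were also set against the fate biopsies, which were counted in another table. By edgeR none of the 7 was called, and 4.77% of all rows were (21.5% had an unadjusted p under 0.05), split 347 higher to 1083 lower with TMM and 213 to 1456 with library totals. MARS was lower in the matched set, at 30.2 ± 4.42 against 46.9 ± 17.9 CPM (log2 difference -0.61, edgeR adjusted p = 0.198). DESeq2 called it (adjusted p = 0.0347), and so did edgeR with library totals (adjusted p = 0.0493). RARS was 154 ± 25.9 against 226 ± 87.2 CPM (-0.53, edgeR adjusted p = 0.320). EPRS (0.01), KARS (0.09), IARS (0.11) and LARS (0.14) lay near 0. QARS had the largest difference of the 7, -1.38 (SE 0.87, edgeR adjusted p = 0.375), at 0.58 ± 0.29 against 1.66 ± 2.66 CPM, and rested on few counts.

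Levels of the 7 genes ordered the groups differently. For KARS and QARS the 4 follicle-cell groups came first and the 4 ooplasm groups last, by TMM over all 32 libraries and by library totals. The remaining orders are by TMM over all 32 libraries. For RARS the order was the reverse down to granulosa cells of the arrested group, with whole oocytes first at 289 ± 71.7 CPM. By library totals whole oocytes fell to 186 CPM, below arrested fate biopsies at 247, and arrested granulosa cells, at 138, lay above matched biopsies, at 122. For MARS both cumulus groups led, at 95.3 ± 18.2 and 88.5 ± 12.5 CPM, and the order then ran from 55.3 CPM in arrested fate biopsies to 30.2 in matched biopsies, with overlap at each step. EPRS ran from 231 ± 18.8 CPM in arrested cumulus cells to 84.3 ± 50.2 in granulosa cells of the blastocyst group, again with overlap at each step. Granulosa cells of the blastocyst group were the lowest for EPRS, IARS and LARS, but by library totals matched biopsies were. EPRS was then 139 CPM in these granulosa cells and 121 in matched biopsies, IARS was 71.0 and 69.5, and LARS was 111 and 61.7.

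Within granulosa cells all pairs of the 7 genes correlated above 0, while in the other cell types pairs went both ways. Over the 21 pairs of members, correlations of the deviations from group means (log2 of CPM + 1) are given as descriptions, since the libraries share depth and scaling. In the 8 granulosa libraries the median r was 0.77, with KARS and QARS the closest pair at 0.98, and 16 pairs were over 0.5. Without B20 and D27 the median was 0.22, with 6 pairs over 0.5 and 14 above 0. In the 8 cumulus libraries the median was -0.0084, from -0.73 for KARS and LARS to 0.81 for EPRS and MARS, with 6 pairs over 0.5. In the 8 fate biopsies it was 0.03, from -0.36 for KARS and QARS to 0.64 for LARS and RARS, also with 6 over 0.5. Over all 32 libraries the median was 0.37, with EPRS and RARS highest at 0.76, and without B20 and D27 it was 0.06. With library totals in place of TMM it was 0.14. Pairs of other rows were not correlated in this way, so no background share stands beside these counts.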

How the data were processed

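RNA of 32 bovine libraries was analysed, 4 in each of 8 groups taken from the labels. The labels' protocols name the SMART-Seq HT kit and, for the libraries, Nextera XT. The submitters' processing notes list Trim Galore, cutadapt, STAR and featureCounts, without versions. The genome build is not given in the sources used here, nor is the strand setting. Raw whole-number counts per row, as deposited by the authors in 4 tables, were the input. DNA methylation data were not analysed here, and 24 columns of other samples were not used.

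Low rows were removed by filterByExpr. The test was the robust quasi-likelihood F test of edgeR 4.0.16 (R 4.3.3) with TMM scaling. Benjamini-Hochberg adjustment ran over all rows tested, and an adjusted p under 0.05 was a call. Each fate comparison and the matched comparison were fitted on their own libraries, and cell types on all 32. Levels in CPM use TMM over all 32 libraries. Alternatives were DESeq2 1.42.0 (Wald test), its size factors, library totals, no filter, subsets of libraries and replicate blocks. Leaving out B20 and D27 was chosen with earlier results of these data known, and for the correlations after seeing these values. The fit was tested on simulated data. Tables were made in Python 3.11.15. Exact 95% counting intervals and the limit of 3 counts for a 0 are at library totals.

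The members and the gene lists were chosen with earlier results of these data known. Of the rows the choice by symbol gave, 1 is not reported here. The 7 members are described, and the genes closest to their mean are named by correlation. By symbol, lists of complex scaffolds, mitochondrial synthetases, amino acid response genes, tRNA biogenesis genes and follicle-cell markers matched no row. Translation factors matched 1 of 23 and oocyte markers 1 of 16. Rows without a symbol were not searched. Matched biopsies and oocytes were joined as pairs by their shared number. Deviations of the same number correlated at 0.183 to 0.300 in 4 pairs, and those of different numbers at -0.328 to 0.219, so these ranges overlapped. The main matched fit did not use the pair, which entered as a block in an alternative. Oocyte labels also tie granulosa libraries to biopsies, where same-label correlations ran from -0.025 to 0.111 and others from -0.160 to 0.146. Cumulus columns carry a fate but not the title number. No label says whether samples are from different animals, and the p-values therefore describe the spread among these samples alone, which may be technical.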

Additional observations from a re-analysis of the deposited data

Results flagged for a closer look

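Of 56 sets of 4 libraries (7 genes in 8 groups), 4 held a library far from its other 3 by Dixon's criterion. For normal values chance gives about 1 in 20, and 4 of 56 is close to that rate. QARS accounted for 3 of them, all in the ooplasm: fate biopsy B20 of the blastocyst group at 2.86 CPM, fate biopsy D29 of the arrested group at 7.87 CPM, and whole oocyte 2 at 3.47 CPM. These QARS sets rest on few counts, so the rate need not hold for them. MARS was high in fate biopsy D24 of the blastocyst group, at 66.96 CPM.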

How the results depend on the processing

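Of 1121 values of single genes under the alternatives, 1003 kept their direction and side of the threshold, 31 lost the call, 25 gained one and 62 turned sign, 2 of these for a called gene (IARS, fate biopsies minus granulosa cells). The cause was not tested. DESeq2 called 1 member between matched and fate biopsies (MARS) and 1 in the cumulus fate comparison (IARS). Library totals gave 1 in the former and no filter gave 1 in the latter. Among arrested libraries 1 member was called between cumulus and granulosa cells. The median correlation of members was 0.0603 without granulosa libraries B20 and D27. With 1 library left out, calls ran from 3 to 5 for fate biopsies minus granulosa cells, 4 to 5 for cumulus minus granulosa cells and 4 to 6 for cumulus cells minus fate biopsies, and were 0 elsewhere.

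For fate biopsies minus granulosa cells, MARS turned to -0.060 with DESeq2, -0.059 with its size factors, -0.31 with library totals and -0.15 without B20 and D27. Library totals gave EPRS -0.066 and IARS -0.020. LARS was 0.12 among blastocyst libraries, and IARS -0.045 among arrested ones. For cumulus minus granulosa cells, RARS was 0.0069 among blastocyst libraries, and LARS was -0.056 with library totals, -0.083 among arrested libraries and -0.096 without B20 and D27. For cumulus cells minus fate biopsies, IARS was -0.0046 when these 2 cell types alone were fitted.

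Between matched and fate biopsies, EPRS was -0.058 with DESeq2 and with its size factors and -0.083 with no filter, and KARS was -0.0086 with no filter. Library totals gave EPRS -0.23, IARS -0.14, KARS -0.15 and LARS -0.095. For the fate difference between granulosa cells and biopsies, MARS, QARS and RARS were 0.44, 0.47 and 0.31 with library totals, and 0.45, 0.55 and 0.34 without B20 and D27.

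Leaving out 1 library turned these signs. In the biopsy fate comparison EPRS ran from -0.21 to 0.17, LARS from -0.22 to 0.24 and QARS from -2.93 to 0.77. RARS ran from -0.025 to 0.046 in the cumulus one. In the difference of fates MARS ran from -0.51 to 0.49, QARS from -1.94 to 1.78 and RARS from -0.86 to 0.10. Between matched and fate biopsies EPRS ran from -0.064 to 0.12, IARS from -0.053 to 0.35 and KARS from -0.072 to 0.24. Between matched biopsies and oocytes KARS ran from -0.029 to 0.29.

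With the pair number as a block, MARS was -0.51 (edgeR adjusted p = 0.742) between matched biopsies and oocytes. With the oocyte label as a block, 3 members were called between fate biopsies and granulosa cells, IARS being lost at 0.53 (edgeR adjusted p = 0.200), and the block changed no other call of a member. An order of the genes per length was not run. Depth limits QARS in the ooplasm, where counts were 0 to 138. With 4 libraries a group, small differences between fates were not detectable in granulosa cells and fate biopsies, where the smallest standard error was 0.29 (KARS, fate biopsies). In cumulus cells standard errors ran from 0.06 (KARS) to 0.15 (MARS).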

Other observations

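Among the 2474 rows with a symbol, genes were ranked by how closely they followed the mean of the 7 standardised synthetase profiles over the 32 libraries (log2 of CPM + 1, Pearson r, given as a description because the libraries share group, depth and scaling). KIAA1551 came first (r = 0.89), then NARS, the cytosolic asparaginyl-tRNA synthetase (0.82), TGOLN2, a protein of the trans-Golgi network (0.80), ZNF664 (0.79) and PHB, prohibitin (0.77). NARS stood at 103 ± 17.4 CPM in fate biopsies and 158 ± 10.3 in cumulus cells (SD, n = 8 each).

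The 3 members that set ooplasm apart were ranked in the same way, a choice made after their values were seen. Among the genes closest to QARS were RTL8C and H2AFJ, a histone H2A variant (r = 0.97 each). RTL8C averaged 41.6 CPM in blastocyst cumulus libraries and 0.22 in blastocyst fate biopsies. KARS was closest to the ribosomal protein gene RPL31 (0.94), at 659 CPM in blastocyst cumulus libraries and 80.3 in blastocyst fate biopsies. RARS was closest to MARCH7, a ubiquitin ligase (0.89), at 353 CPM in whole oocytes and 51.0 in blastocyst cumulus libraries, followed by ADSS and VAMP3 (0.88 each).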
